A study of Mus musculus with 12 samples.

Results

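Tumour necrosis factor (Tnf), interleukin 6 (Il6), interleukin 1 alpha and beta (Il1a and Il1b), the interleukin 1 receptor antagonist (Il1rn), interleukin 10 (Il10), leukaemia inhibitory factor (Lif) and the colony-stimulating factors Csf2 and Csf3 were followed in osteocyte-like cells held at different apparent gravity levels. These 9 genes, of 19938 with a measured transcript cluster of a single symbol, were picked by name, with earlier results of these data known. They were picked as secreted signals of inflammation and of blood cell growth. Each had 1 transcript cluster (the group of probes that reads 1 gene) on an Affymetrix Mouse Gene 1.0 ST array, and its value was the log2 intensity after RMA (robust multi-array average, which removes background, normalizes the arrays and merges the probes of a cluster).

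The cells were MLO-Y4, a mouse line with osteocyte features and therefore a model of 1 line, grown on collagen in α-MEM with serum and then kept for 48 h with 5% CO2 in every group. The μ-g group lay in the bore of a superconducting magnet where the magnetic force opposed gravity, at 12 T. The 2-g group lay where that force added to gravity, also at 12 T, and the 1-g group lay at the centre of the bore at 16 T with no net magnetic force. The control group stayed in an incubator outside the magnet. Each group had 3 arrays of samples that the labels call biological replicates 1, 2 and 3. The sources do not say whether these came from separate cultures, and p-values measure only the spread between them.

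The sets keep the names the study gave them. Set 1 compares μ-g with control, set 2 compares 2-g with control, set 3 compares 1-g with control, and set 4 compares μ-g with 2-g. The comparisons μ-g v.s. 1-g, and likewise 2-g v.s. 1-g, were added. Sets 1 to 3 share the control arrays, and sets 2 and 4 and 2-g v.s. 1-g share the 2-g arrays, so their values are not independent. The field and the apparent gravity differed together, and cannot be told apart, in set 1, set 2, μ-g v.s. 1-g and the comparison of 2-g with 1-g. Set 3 kept the gravity level and changed the field, and set 4 kept 12 T with the magnetic force turned round. Sets 1 to 3 also compare the magnet bore, with its own temperature and gas control, with an incubator. That difference cannot be told apart from those of field or gravity. A gene was said to rise or fall where limma gave a Benjamini-Hochberg adjusted p below 0.05 over all 19938 genes. SE is the standard error of the limma fit over the 12 arrays. The smallest two-sided p that an exact permutation test reaches with 3 arrays per group is 0.1, and none is printed.

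Array medians lay between 7.04 and 7.12. Of the members, Il10 (mean over the 12 arrays 6.20), Csf2 (6.08) and Il1b (5.74) averaged below every array median. Of 12 measured osteocyte and osteoblast markers, Pdpn (12.06 to 12.36), Gja1 (11.95 to 12.39), Sost (7.08 to 7.44), Col1a1, Col1a2 and Alpl were above the median of every array. Dmp1 (5.42 to 5.78), Phex, Mepe, Fgf23, Ibsp and Sp7 were below it on all 12 arrays. Of 18 macrophage markers, Cd68 (9.14 to 9.98), Cd14 (8.79 to 9.33) and Lyz2 (7.05 to 7.77) were above the array median on all 12 arrays and Csf1r on 10. The other 14, which include Ptprc, the common leukocyte antigen, and Adgre1, a defining antigen of mouse macrophages, were below it on all 12, as were all 11 measured lymphocyte markers and all 8 mast cell markers. The neutrophil markers Camp (7.65 to 8.10) and S100a8 (8.59 to 9.62) and the endothelial marker Vwf (7.12 to 7.43) were above it on all 12 arrays. The other markers of those lists were below it on all 12.

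Cytokines are small secreted proteins that act through receptors on neighbouring cells. TNF and the IL-1 ligands start inflammatory signalling through NF-κB and are known in bone for promoting osteoclast formation, while the receptor antagonist blocks IL-1 and IL-10 restrains inflammatory responses. IL-6 and LIF both signal through the shared receptor chain gp130 to STAT3, and the colony-stimulating factors drive the growth of granulocytes and macrophages.

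The stretches before the transcription start are shown for Tnf, Il6 and Il1rn, members that were lower in 2-g than in control and differ in the motifs they hold. Each runs 5′ to 3′ over the 250 bases before the start on the coding strand (RefSeq, GRCm38.p6), and capitals mark matches to the NF-κB consensus, the AP-1 motif TGANTCA or the TATA box TATAAA. Tnf lies on the minus strand (chr17:35202008-35202257), Il6 on the plus strand (chr5:30012864-30013113), and the first of 3 listed starts of Il1rn on the plus strand (chr2:24336610-24336859).
Tnf: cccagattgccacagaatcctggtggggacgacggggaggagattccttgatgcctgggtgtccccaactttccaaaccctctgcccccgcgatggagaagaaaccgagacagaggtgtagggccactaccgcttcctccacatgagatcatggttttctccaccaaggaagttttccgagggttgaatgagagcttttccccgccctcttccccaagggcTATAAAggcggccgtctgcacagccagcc
Il6: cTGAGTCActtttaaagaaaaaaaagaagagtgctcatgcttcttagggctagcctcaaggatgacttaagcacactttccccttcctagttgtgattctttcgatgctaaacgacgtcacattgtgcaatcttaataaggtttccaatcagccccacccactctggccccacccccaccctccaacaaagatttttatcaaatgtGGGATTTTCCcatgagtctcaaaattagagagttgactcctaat
Il1rn: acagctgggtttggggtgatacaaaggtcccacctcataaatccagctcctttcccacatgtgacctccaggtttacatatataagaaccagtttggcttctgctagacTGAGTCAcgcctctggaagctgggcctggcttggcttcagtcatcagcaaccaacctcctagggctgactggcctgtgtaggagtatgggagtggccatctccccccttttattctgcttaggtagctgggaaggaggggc
The search covered both strands of 300 bases, from 250 before to 50 after the start, and the table held 7 of the 9 members, in 9 windows. A member was counted if any of its windows matched, and Il1rn had 3. The percentages are shares of single windows, so the 2 measures are unlike. The NF-κB consensus was found in 1 member, Il6, starting 44 bases before the start, and in 4.51% of all 32851 windows. AP-1 was found in 4 members, Il6 at 249, Il1rn at 141, Lif at 228 and Il1a at 12 bases before the start, and in 7.81% of all windows. TATAAA was found in 4 members, in Tnf at 29, Il1b at 31 and Il1a at 32 bases before the start and on the opposite strand after the third start of Il1rn, and in 13.6% of all windows. ACGTG, the core of the hypoxia response element, was found in 0 members and in 19.6% of all windows. A match is a description of the letters and not a bound site. Il10 and Csf3 were not in the table.

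The members that passed the test did so in comparisons with 2-g. In set 2, 4 of the 9 fell (Tnf, Il1rn, Il6 and Csf3), 0 rose and 5 did not pass. Beside them, 3.11% of all genes were called in either direction, 1.68% higher and 1.43% lower. With the replicate number as a block, 1 member rose in set 2 (Il10) and the same 4 fell, beside 5.06% and 4.32% of all genes. In set 4, Tnf, Il1rn and Csf3 were up-regulated in μ-g relative to 2-g, Il10 was down-regulated and 5 did not pass, beside 2.88% of all genes, 1.38% higher and 1.49% lower. In 2-g v.s. 1-g, Tnf, Il1rn and Csf3 fell and 6 did not pass, beside 2.26% of all genes, 1.26% higher and 1% lower. With the replicate number as a block the counts there were 1 rose and 4 fell, beside 3.21% and 4.36% of all genes. In set 1 and in set 3 limma called 0 members, beside 0.823% and 0.321% of all genes. At an unadjusted P below 0.05, 2 members were lower and 0 higher in each of these sets, Il6 and Il1rn in both, beside 4.1% of all genes lower in set 1 and 3.03% in set 3. The mean of 2-g was the lowest of the 4 group means in 7 of 9 members, and in 36.4% of all genes. All 3 2-g arrays lay below the other 9 arrays in 4 members (Tnf, Il1rn, Lif and Csf3), and in 3.96% of all genes. They lay above the other 9 in Il10, and in 2.59% of all genes. The members' median log2 fold change was −0.20 in set 2 and 0.21 in set 4, and over all genes it was −0.00 and 0.03.

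**Figure D1:**
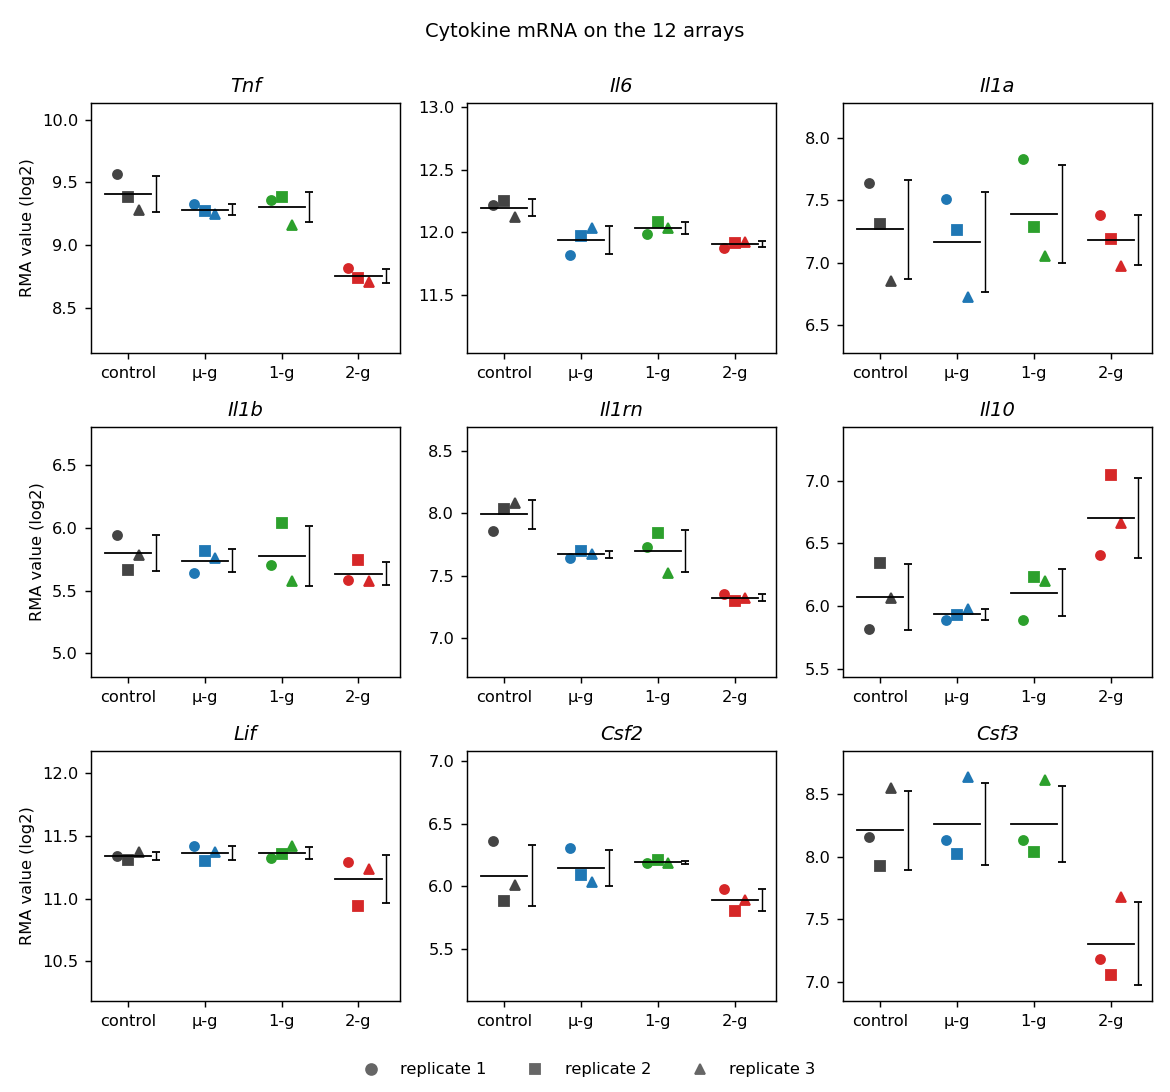
The log2 RMA value of each of the 9 cytokine genes is plotted for each array by group, with marker shape giving the replicate number, a line at the group mean and a bar of 1 SD to its right (n = 3). Every panel spans the same height on the log2 scale, and the 2-g arrays of Tnf (8.71 to 8.81), Il1rn (7.30 to 7.36) and Csf3 (7.05 to 7.68) lie below all other arrays while those of Il10 (6.40 to 7.04) lie above them.

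Tnf, which encodes the trimeric cytokine that starts much of the acute inflammatory response, had log2 values of 9.57, 9.38 and 9.28 in control for replicates 1, 2 and 3. The μ-g arrays read 9.33, 9.28 and 9.24, the 1-g arrays 9.36, 9.38 and 9.16, and the 2-g arrays 8.81, 8.74 and 8.71. The 3 2-g arrays were the lowest of the 12, and the other 3 groups overlapped. Tnf fell in set 2 by 0.66 on the log2 scale (SE 0.08, 1.58-fold, limma adjusted p = 0.00247). It was up-regulated in set 4 by 0.53 (limma adjusted p = 0.00341) and fell in 2-g v.s. 1-g by 0.55 (limma adjusted p = 0.00344). The decrease of Tnf in set 2 was between 0.58 and 0.72 over 20 alternative settings, and all of its adjusted p-values stayed below the threshold, with the highest at 0.0319. Control, 1-g and μ-g followed each other in that order at means of 9.41 ± 0.14, 9.30 ± 0.12 and 9.28 ± 0.04 (SD, n = 3), and neighbours did not differ beyond their spread.

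Of the interleukin 1 genes, the antagonist passed the test in 3 comparisons and the 2 agonists in 0. Il1rn encodes the protein that occupies the IL-1 receptor without starting a signal. Its log2 values were 7.86, 8.03 and 8.08 in control, 7.64, 7.70 and 7.68 in μ-g, and 7.73, 7.84 and 7.52 in 1-g. They were 7.36, 7.30 and 7.32 in 2-g. All 9 arrays from the magnet were below the 3 control arrays, and the 2-g arrays were below the rest. Il1rn fell in set 2 by 0.67 on the log2 scale (SE 0.08, 1.59-fold, limma adjusted p = 0.00247), with a highest adjusted p of 0.0319 over the alternatives. It had log2 fold changes of −0.32 in set 1 (SE 0.08, limma adjusted p = 0.0864) and −0.29 in set 3 (SE 0.08, limma adjusted p = 0.161), which did not pass. It was up-regulated in set 4 by 0.35 (limma adjusted p = 0.0371) and fell in 2-g v.s. 1-g by 0.37 (limma adjusted p = 0.0305). The call in set 4 was lost without any single μ-g or 2-g array (adjusted p up to 0.119), and the call in 2-g v.s. 1-g without 1-g replicate 1 or 2 or any 2-g array (up to 0.106) and when the 6 arrays of the comparison were fitted alone. The order was control, 1-g, μ-g and 2-g, with 1-g (7.70 ± 0.16) and μ-g (7.67 ± 0.03) within their spread.

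Il1a encodes an agonist that is often released from damaged cells. Its log2 values were 7.64, 7.31 and 6.85 in control, 7.51, 7.27 and 6.73 in μ-g, 7.83, 7.29 and 7.06 in 1-g, and 7.38, 7.19 and 6.98 in 2-g. Every group overlapped every other, and the arrays numbered 1 were the highest and those numbered 3 the lowest in all 4 groups. The log2 fold change in set 2 was −0.09 (SE 0.24) with a 95% interval from −0.61 to 0.44, and in set 4 it was −0.02 with an interval from −0.54 to 0.51. Both intervals are wider than 1 on the log2 scale. Il1b, the agonist that is cut to its active form by caspase-1, read 5.95, 5.67 and 5.78 in control and 5.59, 5.74 and 5.57 in 2-g. The μ-g arrays of Il1b were 5.64, 5.82 and 5.76 and the 1-g arrays 5.70, 6.04 and 5.58. These groups overlapped, and the log2 fold change of Il1b in set 2 was −0.16 (SE 0.11, limma adjusted p = 0.522), with a 95% interval from −0.40 to 0.08. In set 4 it was 0.10 with an interval from −0.14 to 0.34. Whether Il1rn changed differently from the agonists was not tested.

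Il6, a cytokine of the acute phase that osteoblast-lineage cells also secrete, read 12.21, 12.25 and 12.12 in control and 11.88, 11.91 and 11.92 in 2-g. The μ-g arrays were 11.82, 11.97 and 12.03 and the 1-g arrays 11.98, 12.08 and 12.04. The 3 control arrays of Il6 were above all 9 arrays from the magnet, and within the magnet μ-g overlapped both other groups. Il6 fell in set 2 by 0.29 on the log2 scale (SE 0.06, 1.22-fold, limma adjusted p = 0.0246). The log2 fold change was −0.26 in set 1 (SE 0.06, limma adjusted p = 0.0786), −0.16 in set 3 (SE 0.06, limma adjusted p = 0.345) and 0.04 in set 4 (SE 0.06, limma adjusted p = 0.825). It was −0.13 in 2-g v.s. 1-g (SE 0.06, limma adjusted p = 0.327). The call in set 2 was lost without any single control or 2-g array (adjusted p up to 0.0864) and when the 6 arrays of that set were fitted alone.

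Lif, which maintains stem cells and acts on bone cells through the LIF receptor and gp130, read 11.34, 11.31 and 11.38 in control, 11.42, 11.30 and 11.37 in μ-g and 11.32, 11.36 and 11.42 in 1-g. In 2-g it read 11.29, 10.94 and 11.23. The 2-g arrays of Lif were the lowest of the 12, but replicate 1 lay only 0.0081 below the nearest μ-g array, and replicate 2, at 10.94, lay far below the others. The log2 fold change was −0.19 in set 2 (SE 0.08, limma adjusted p = 0.246), 0.21 in set 4 (SE 0.08, limma adjusted p = 0.194) and −0.21 in 2-g v.s. 1-g (SE 0.08, limma adjusted p = 0.213), and none passed. Without 2-g replicate 2 the difference of Lif was −0.08 in set 2, 0.10 in set 4 and −0.10 in 2-g v.s. 1-g. The other 3 group means lay between 11.34 and 11.37.

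Il10, the anti-inflammatory cytokine of the group, was the member that lay higher in 2-g. The group means of Il10, from 5.93 in μ-g to 6.70 in 2-g, were below every array median (7.04 to 7.12). Its log2 values were 6.40, 7.04 and 6.66 in 2-g and 5.82, 6.34 and 6.06 in control. The μ-g arrays read 5.89, 5.93 and 5.98 and the 1-g arrays 5.89, 6.23 and 6.20. The 2-g arrays lay above all others, and control, μ-g and 1-g overlapped. In set 4 Il10 fell in μ-g relative to 2-g by 0.77 (SE 0.16, 1.70-fold, limma adjusted p = 0.0240), and this call was lost without μ-g replicate 1 or 3 or 2-g replicate 2 or 3 (adjusted p up to 0.0975). In set 2 the log2 fold change was 0.63 (SE 0.16, limma adjusted p = 0.0540), just outside the threshold. With the replicate number as a block it passed (limma adjusted p = 0.00344), and over 19 alternatives the adjusted p ran from 0.00344 to 0.169. In 2-g v.s. 1-g it was 0.60 (SE 0.16, limma adjusted p = 0.0785, and 0.00463 with the block, with a range from 0.00463 to 0.233 over the alternatives). All 3 same-numbered differences of Il10 between 2-g and control were positive, at 0.59, 0.70 and 0.60.

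Csf3, the growth factor of neutrophil granulocytes, had the widest range of group means of the 9. Its log2 values were 8.15, 7.92 and 8.55 in control, 8.13, 8.02 and 8.64 in μ-g and 8.14, 8.04 and 8.61 in 1-g. In 2-g they were 7.18, 7.05 and 7.68. The 2-g arrays were the lowest of the 12, and the other 3 groups overlapped almost fully, with means of 8.21 ± 0.32, 8.26 ± 0.33 and 8.26 ± 0.30 (SD, n = 3). In set 2 Csf3 fell to a level 1.87-fold lower than control (limma adjusted p = 0.0466). It was up-regulated in set 4 by 0.96 (SE 0.22, 1.94-fold, limma adjusted p = 0.0386) and fell in 2-g v.s. 1-g by 0.96 (SE 0.22, limma adjusted p = 0.0438). The arrays numbered 3 were the highest and those numbered 2 the lowest in all 4 groups, and the spread within a group was thus largely shared between groups. The same number was highest and the same number lowest in all 4 groups in 2 of the 9 members, Il1a and Csf3, and in 4.28% of all genes. The same-numbered differences between 2-g and control were −0.97, −0.87 and −0.87, with an SD of 0.06, where the SD within the groups ran from 0.30 to 0.33. Between μ-g and 2-g the same-numbered differences of Csf3 were 0.95, 0.97 and 0.96. With the block the limma adjusted p in set 4 was 3.91e-06. Over 20 alternatives, the block among them, the call in set 2 was lost in 12 (adjusted p up to 0.171). That in set 4 was lost in 8 (up to 0.136) and that in 2-g v.s. 1-g in 12 (up to 0.146). The arrays whose removal ended the call in set 2 were control replicates 1 and 3, μ-g replicate 1, 1-g replicates 1 and 2 and each 2-g array. In set 4 they were control replicate 1, μ-g replicates 1 and 3, 1-g replicate 1 and 2-g replicates 1 and 2. In 2-g v.s. 1-g they were control replicate 1, μ-g replicate 1, each 1-g array and 2-g replicates 1 and 2.

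**Figure D2:**
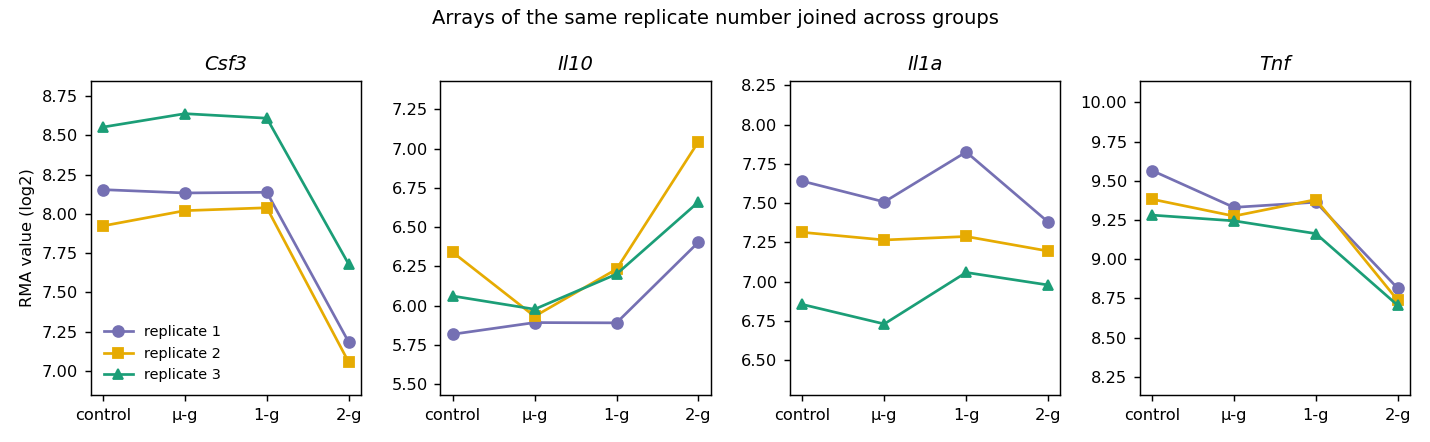
Log2 RMA values of Csf3, Il10, Il1a and Tnf are plotted by group, and lines join the arrays of the same replicate number (1 line each for replicates 1, 2 and 3). In Csf3 the 3 lines drop in parallel to 2-g, by 0.97, 0.87 and 0.87 from control, while in Il1a they stay apart by replicate number and the groups overlap.

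Csf2, the growth factor of granulocytes and macrophages, read 6.36, 5.89 and 6.01 in control and 6.31, 6.09 and 6.04 in μ-g. The 1-g arrays were 6.18, 6.21 and 6.19 and the 2-g arrays 5.98, 5.81 and 5.89. The 2-g arrays of Csf2 were below all μ-g and 1-g arrays and overlapped control, where replicate 2 was low. The log2 fold change was −0.20 in set 2 (SE 0.11, limma adjusted p = 0.402), with a 95% interval from −0.43 to 0.04. It was 0.25 in set 4 (SE 0.11, limma adjusted p = 0.245) and −0.30 in 2-g v.s. 1-g (SE 0.11, limma adjusted p = 0.185). With the block, Csf2 fell in 2-g v.s. 1-g (limma adjusted p = 0.0422), with a range from 0.0422 to 0.403 over the alternatives.

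An F test over the 4 groups called Tnf (limma adjusted p = 0.00240) and Il1rn (limma adjusted p = 0.00489), beside 3.15% of all genes. Il6 (0.0535), Il10 (0.0540) and Csf3 (0.0542) had limma adjusted p-values just above the threshold. With the block, all 5 of these passed, beside 11.7% of all genes. In μ-g v.s. 1-g limma called 0 members and 0 of all genes. There, 0 members had an unadjusted P below 0.05, beside 1.37% of all genes higher and 0.938% lower, and log2 fold changes ran from −0.22 to 0.00. The widest 95% interval of that comparison reached from −0.75 to 0.30, that of Il1a.

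**Figure D3:**
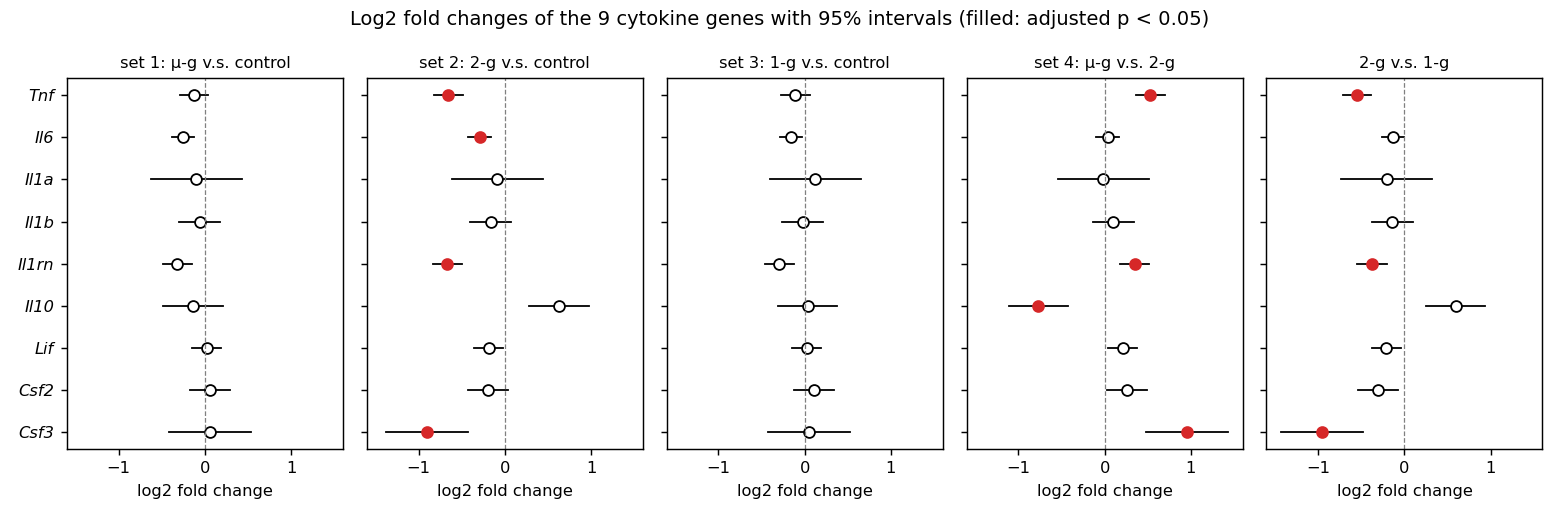
Log2 fold changes of the 9 cytokine genes are shown with 95% intervals from limma in 5 comparisons, 1 panel each, with filled points where the adjusted p is below 0.05. Filled points appear in set 2 (4), set 4 (4) and 2-g v.s. 1-g (3), and the interval of Il1a in set 2 (−0.61 to 0.44) is wide.

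The lists around the cytokines are read beside the share of all genes, which at the adjusted threshold was 3.11% in set 2 and 2.88% in set 4. At an unadjusted P below 0.05 it was 8.65% higher and 8.1% lower in set 2, and 11.4% higher and 5.75% lower in set 4. With the replicate block, at the adjusted threshold, it was 5.06% higher and 4.32% lower in set 2, and 5.28% higher and 3.9% lower in set 4. Of 14 listed receptor chains 13 were measured. Il6st, which encodes gp130, rose in set 2 by 0.31 (SE 0.07, limma adjusted p = 0.0409), and the other 12 did not pass. Its log2 values were 11.78, 11.96 and 11.99 in 2-g and 11.51, 11.68 and 11.61 in control, which did not overlap. In set 4, 0 receptors passed, although 2 were higher and 1 lower at an unadjusted P below 0.05. Of 18 measured signal transducers of 22 listed, 0 passed in set 2, where 2 were higher and 3 lower at an unadjusted P below 0.05. Irak2, a kinase that carries the IL-1 receptor signal, rose in set 4 by 0.22 (SE 0.05, limma adjusted p = 0.0332). Its 2-g arrays read 9.66, 9.58 and 9.57, below its μ-g arrays at 9.83, 9.85 and 9.81. Myd88, the adaptor of IL-1 and Toll-like receptors, had a log2 fold change of 0.24 in set 4 (SE 0.06, limma adjusted p = 0.0583), which did not pass without the block and passed with it (0.0344). With the block, 2 transducers rose and 1 fell in set 2, and 4 rose in set 4, while the receptor counts of both sets were the same as without it.

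Of 15 genes of cytokine processing and release, Nlrp3, the sensor of the inflammasome that activates caspase-1, fell in set 2 by 0.54 (SE 0.11, limma adjusted p = 0.0259) and the other 14 did not pass. Nlrp3 read 6.97, 6.62 and 6.93 in 2-g against 7.60, 7.33 and 7.23 in control. Casp1, which encodes caspase-1, had a log2 fold change of −0.01 (SE 0.19, limma adjusted p = 0.992). In set 4 Nlrp3 had a log2 fold change of 0.43 (SE 0.11, limma adjusted p = 0.0660, and 0.0118 with the block), and 0 of the 15 passed without the block. With it, 2 of the 15 rose and 1 fell in set 2, and 2 rose and 1 fell in set 4. Of 13 genes that set the stability of cytokine mRNA, 0 passed in set 2 and 0 in set 4 by limma, with or without the block. At an unadjusted P below 0.05, 1 of them was higher in set 2 and 1 lower in set 4. Zfp36, which marks Tnf mRNA for decay, had a log2 fold change of 0.01 in set 2 (SE 0.06, limma adjusted p = 0.981).

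Of 31 measured relatives of the members among 38 listed, 1 rose in set 2 and 30 did not pass. Tnfsf9, a ligand of the TNF superfamily that stimulates T cells, read 8.32, 8.41 and 8.17 in 2-g, 7.57, 8.02 and 7.84 in control and 7.22, 7.47 and 7.32 in μ-g. These groups did not overlap, with 2-g the highest and μ-g the lowest. Tnfsf9 rose in set 2 by 0.49 (SE 0.11, limma adjusted p = 0.0338), opposite in sign to Tnf, and was down-regulated in set 4 by 0.96 (SE 0.11, limma adjusted p = 0.000587). Il24, a member of the IL-10 family, was also down-regulated in set 4 by 0.37 (SE 0.06, limma adjusted p = 0.00791). Il7, a growth factor of lymphocytes, was up-regulated there by 0.21 (SE 0.05, limma adjusted p = 0.0390). All values of Il24 (at most 6.39) and Il7 (at most 6.22) were below every array median. With the block, 3 of these relatives rose and 1 fell in set 2, and 1 rose and 3 fell in set 4.

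**Figure D4:**
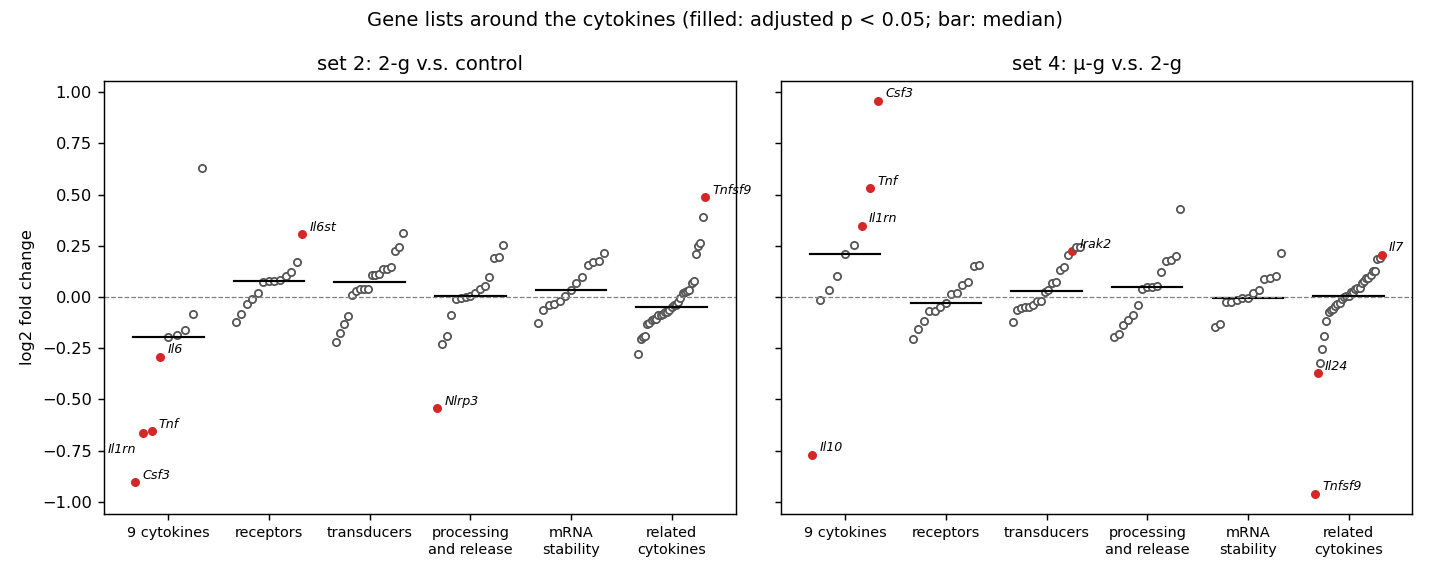
Each point is 1 gene of the 9 cytokines or of a list around them, ordered by its log2 fold change in set 2 (left) or set 4 (right), with filled and named points where the limma adjusted p is below 0.05 and a bar at the list's median. The 9 cytokines reach from −0.91 to 0.63 in set 2, and 3 genes outside them (Il6st, Nlrp3 and Tnfsf9) are filled there.

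In a bulk culture, fewer cells that make a cytokine and less of its mRNA per cell cannot be told apart. The 18 macrophage markers had a list mean that ran from 6.35 to 6.42 over the control arrays and from 6.33 to 6.36 over the 2-g arrays. Cd68, a lysosomal protein abundant in macrophages, was the 1 gene of that list that passed in set 4, where it rose by 0.55 (SE 0.11, limma adjusted p = 0.0247). It had a log2 fold change of −0.40 in set 2 (SE 0.11, limma adjusted p = 0.0786, and 0.0161 with the block). With the block, 1 macrophage marker fell in set 2 and 2 rose in set 4. Of 10 neutrophil markers, 2 (Camp and S100a8) were above the array median in every group, and S100a9 was below it on all arrays. S100a8, a calcium-binding protein of granulocytes that other cells can make, fell in set 2 by 0.64 (SE 0.11, limma adjusted p = 0.0127). In set 1 it fell by 0.59 (SE 0.11, limma adjusted p = 0.0347). The other 9 neutrophil markers did not pass in set 2 or in set 1. With the block, 1 neutrophil marker fell in set 2, and 0 passed in set 4 with or without it. In set 4 the log2 fold change of S100a8 was 0.04 (SE 0.11, limma adjusted p = 0.891). The list mean of the neutrophil markers ran from 6.35 to 6.39 in control and from 6.28 to 6.33 in 2-g. The part of such cells in the cytokine values was not tested. Of 12 measured osteocyte and osteoblast markers, Col1a1, a chain of bone collagen, rose in set 2 by 0.41 (SE 0.08, limma adjusted p = 0.0177) and 11 did not pass. With the block, 2 of these markers rose in set 2 and 2 fell in set 4, where 0 passed without it. Of 8 endothelial markers, 0 passed in either set by limma, with or without the block, and 1 was lower in set 2 and 1 higher in set 4 at an unadjusted P below 0.05.

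For the 3 members with the widest range of group means, the genes with the most similar values were found by the root mean square difference over the 12 arrays, after each gene was centred on its own mean. For Csf3, whose own root mean square deviation was 0.485, they were Gpnmb (0.189), Socs2 (0.211) and Lipg (0.222). Socs2, a suppressor of cytokine signalling, averaged 7.67 in 2-g and 8.37 in control, and Gpnmb, a membrane glycoprotein of osteoblasts and macrophages, 8.74 and 9.68. Lipg, an endothelial lipase, averaged 9.22 in 2-g and 9.64 in control. For Il10, with a deviation of 0.349, they were Plekha2 (0.123), S1pr3 (0.128) and Ackr3 (0.130). S1pr3, a receptor for sphingosine 1-phosphate, averaged 8.82 in 2-g and 8.10 in control, and Ackr3, a scavenging chemokine receptor, 9.96 and 9.47. For Il1rn, with a deviation of 0.251, they were Ccdc86 (0.0924), Eif2b3 (0.0982) and Pinx1 (0.108). Eif2b3, a subunit of a translation initiation factor, averaged 10.56 in 2-g and 11.05 in control, and Pinx1, an inhibitor of telomerase, 9.12 and 9.71. In set 2, Gpnmb (limma adjusted p = 0.162), Lipg (0.246) and Ackr3 (0.0598) did not pass. With the block they passed (limma adjusted p = 0.000159, 0.0101 and 0.000642). The others of these nearest genes passed in set 2 with and without the block. In set 4 and in 2-g v.s. 1-g, Gpnmb and Eif2b3 passed only with the block. These likenesses are over arrays that share groups and replicate numbers, and they are descriptions with no test of the likeness.

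**Figure D5:**
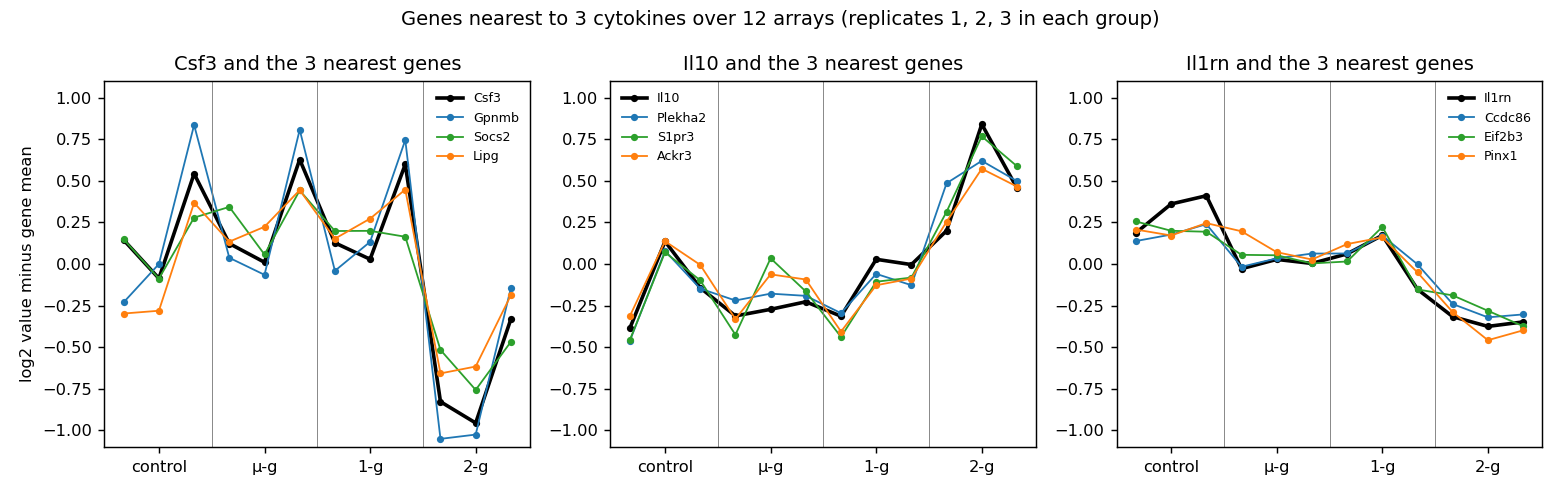
Log2 values centred on each gene's mean are plotted over the 12 arrays, grouped by condition and with replicates 1, 2 and 3 in each, for Csf3, Il10 and Il1rn (black) and the 3 genes nearest to each. The black lines of Csf3 and Il1rn are lowest in 2-g and that of Il10 is highest there, and replicate 3 of Csf3 is the highest of its group in all 4 groups, as it is in Gpnmb.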

How the data were processed

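The authors extracted total RNA, hybridised 12 Affymetrix Mouse Gene 1.0 ST arrays and deposited log2 values normalized by RMA (named in the submitters' processing notes, with no version) for 28856 transcript clusters. RMA sets all arrays to a common distribution, so a shift of all genes would not be seen. Symbols came from the platform's annotation, updated through gene identifiers. Of the clusters 21789 carried 1 symbol, 1621 several and 5446 none, and 91 identifiers had no match. The cluster with the highest mean was taken for the 999 genes with several, which left 19938 genes. Each of the 9 members had 1 cluster.

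The 4 groups were fitted together by limma 3.58.1 (functions lmFit and eBayes, run under R 4.3.3, prior from all clusters with 3.90 degrees of freedom, 8 residual degrees of freedom). P-values were adjusted over all genes. The fit was tested on simulated data. The members, the gene lists and the tests were chosen with earlier results of these data known. Genes outside the members were named by rule: up to 4 per list with the smallest F test p could be named, with those called in set 2 or set 4, and the 3 nearest genes to each of 3 members. The text also names Casp1, Zfp36 and markers, chosen after their values were seen.

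Replicate numbers in the sample titles were checked as pairs. The correlation of same-numbered deviations from the group means was above 0.1 for every pair in all comparisons except set 1, where the lowest was 0.0179. The blocked fit therefore stands beside results and counts of members in set 2, set 4 and 2-g v.s. 1-g where it changed a call. For other genes it is given for some results and not for all. Alternatives were the block, the normalization, the prior, a level filter, a fit of only the 6 arrays compared, and leaving out each array. The number of arrays limits the precision. Raw intensities were not used here.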

Additional observations from a re-analysis of the deposited data

How the results depend on the processing

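The main moves in the counts of members called are given beside the counts over all genes. With the replicate block, set 1 had 2 members called in place of 0, Il6 (limma adjusted p = 0.0316) and Il1rn (0.0441), both lower. In set 1 the same-numbered deviations correlated at 0.43, 0.48 and 0.018 for replicates 1, 2 and 3. Set 2 had 5 members called in place of 4, 2-g v.s. 1-g 5 in place of 3, and the F test 5 in place of 2. Over all genes the block called 938 in place of 164 in set 1 and 1870 in place of 620 in set 2. It called 1510 in place of 451 in 2-g v.s. 1-g, and 11.7% in place of 3.15% by the F test. Among genes above the median level, which leave 5 of the 9 members, set 1 had 2 called and the F test 4. Of all genes above that level, 392 were called in set 1. In fits of only the 6 arrays of a comparison, set 2 had 2 members called in place of 4, set 4 had 3 in place of 4, and 2-g v.s. 1-g had 1. Over all genes these fits called 151 in set 2, 301 in set 4 and 252 in 2-g v.s. 1-g, in place of 620, 574 and 451. With a prior from 1 cluster per gene, chosen after seeing the data, the F test had 5 and set 2 had 5, and quantile normalization also gave 5 in set 2. Over all genes these settings called 681 and 693 in set 2, in place of 620. For the F test, calls over all genes were counted only in the main fit and with the block. With an intensity trend and robust prior, Csf3 lost its calls, which left 3 members in set 2, 3 in set 4 and 2 in 2-g v.s. 1-g. Over all genes this setting called 549, 549 and 415. Csf3 also lost its calls in set 2 and 2-g v.s. 1-g with centred arrays and with all transcript clusters. With quantile normalization it lost that in 2-g v.s. 1-g. With centred arrays Il10 passed in set 2 (limma adjusted p = 0.0442) and in the F test (0.0468). Il6 passed the F test with the intensity trend (0.0374). Leaving out 1 array at a time gave 2 to 4 members in set 2, 1 to 4 in set 4, 1 to 3 in 2-g v.s. 1-g, 2 to 3 in the F test, and 0 in set 1, set 3 and μ-g v.s. 1-g. Over all genes it gave 145 to 660 in set 2, 219 to 670 in set 4 and 168 to 461 in 2-g v.s. 1-g. In set 1 it gave 2 to 392, in set 3 0 to 61, and in μ-g v.s. 1-g 0. The cause of these moves was not tested, and the fits that leave 1 array out also hold fewer arrays. Over those fits the log2 fold change of Il1a ran from −0.29 to 0.10 in set 2 and from −0.19 to 0.20 in set 4, and that of Il6 in set 4 from −0.011 to 0.10, and these uncalled values changed sign. No called value changed sign in any alternative run. The block changed no other call of a member in set 2, set 3 or set 4 than that of Il10 in set 2. Taking the next-highest cluster gave no value, since each member has 1 cluster. In set 2 the SE ran from 0.06 (Il6) to 0.24 (Il1a), so the size of change that 3 arrays a group could call differed between members.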
